A study of Solanum lycopersicum with 96 samples.

Results

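The methylation of seed DNA from the tomato cultivar Bolstar was compared between mother plants treated with Ina in time window 2 and control mother plants. Each group is represented by 1 pooled list of genomic regions. The Ina list holds 30071 regions and the control list 26750, together 56821 of the 237372 regions in the 8 lists of the series. An Ina region with no base in the control list was called gained, and a control region with no base in the Ina list was called lost. The shared regions were sorted into those with identical ends, those with shifted ends, those that 1 list cuts into several parts, and those that 1 list joins. Every comparison was made over all regions and again at a score of 78 or more in both lists, because 78 is the lowest score in the control list and 71 the lowest in the Ina list. Chromosomes 6 and 9 were set apart from the other 10. Lists set beside this comparison come from Bolstar seed after BABA (beta-aminobutyric acid) in time window 2 and from 5 Moneyberg groups. The Moneyberg groups are control, Ina and BABA in time window 2, and BABA and MeJA (methyl jasmonate) in time window 3. The Moneyberg lists thus mix seed of treated and of control mother plants.

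The series asked whether chemical priming of tomato mother plants is linked to the DNA methylation of their seed, in the cultivars Bolstar and Moneyberg, and the seed came from batches whose daughter plants had resisted pathogens better. For each Bolstar group the labels give 12 libraries, 6 replicates with 2 libraries each, from seed of 6 mother plants with 10 seeds pooled per extraction. The labels do not define time window 2 and do not spell out Ina, a name that in the plant defence literature stands for an isonicotinic acid derivative used to mimic salicylic acid. Whole seed was extracted, which holds embryo, endosperm and a maternal seed coat, and the parts cannot be told apart.

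In plants, cytosines are methylated in 3 sequence contexts, CG, CHG and CHH. Transposons and the heterochromatin around the centromeres carry dense methylation, while the gene-rich chromosome arms carry less. Priming agents put defence pathways into a state of faster response, and DNA methylation is studied as a carrier of such a state from a treated mother plant to its offspring. The names in the deposited lists begin with HYPO, but the sources used here give neither the cytosine context nor whether a listed region is low or high in methylation. Gained and lost therefore refer to being listed, not to a direction of methylation. The score is a whole number that grows with region length, at 17.2 per kb of listed sequence in both lists. It is read here as a number of cytosine sites, but which sites enter it is not stated. It is not a fixed count of the sequence, since 1084 of 13043 regions with identical ends had different scores in the Ina and control lists. Sites and sites per kb below stand for this score. Since each group was pooled into 1 list, replicate error cannot be given, no difference below was tested, and the intervals given cover counting error over regions only. The read depth behind a region is unknown.

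Ina and control listed nearly the same amount of sequence, but the Ina list cut it into more and smaller regions. The Ina regions covered 453 Mb, which is 56.1% of the assembled chromosomes, and the control regions covered 452 Mb, or 56.0%. The Jaccard index, the bases in both lists divided by the bases in either, was 0.920. A further 19.6 Mb stood only in the Ina list and 18.1 Mb only in the control list. The median Ina region was 10.4 kb long with a score of 166, and the median control region was 11.5 kb long with a score of 184.5. The Ina list had 3321 regions more than the control list. Gained minus lost regions made up 1362 of them and the cutting of control regions into several parts 2795. Joining removed 1053, and groups in which several regions overlapped several others added 217.

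In all, 2127 Ina regions were gained and 765 control regions were lost. The gained regions are 7.07% of the Ina list (95% Wilson interval 6.79 to 7.37%), and the lost regions are 2.86% of the control list (2.67 to 3.07%). The filter at 78 in both lists left 1148 gained regions, 3.99% of 28777, and 908 lost ones, 3.39% of 26750. Of these 908, 143 still touched an Ina region with a score below 78. The gained regions outnumbered the lost ones on all 12 chromosomes in both settings. With a limit of 85 in both lists the order turned, with 640 gained (2.38%) and 1061 lost (4.12%). At this limit a region can count as unshared though it overlaps a region of the other list with a score below 85. Some of the 1061 do, since 765 control regions were lost over all regions.

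The amount of sequence turned with the same filter. Over all regions, the Ina list held 1.51 Mb more than the control list, and 8 of 12 chromosomes had more listed sequence in Ina. At a score of 78 or more, the Ina list held 14.6 Mb not in the control list and the control list 19.6 Mb not in the Ina list, a difference of -4.96 Mb (Ina minus control). Chromosome 6 was then the 1 chromosome of 12 with more listed sequence in Ina, by 0.05 Mb. The filter at 78 took regions out of the Ina list only. The 1294 Ina regions with scores from 71 to 77, which have no counterpart range in the control list, held 6.47 Mb between them.

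Regions with the same ends to the base were the most frequent kind of shared region. Identical ends were found for 13043 regions, 43.4% of the Ina list and 48.8% of the control list. Another 6572 regions, 24.6% of the control list, overlapped 1 region of the other list with other ends. In 83.7% of these, 1 end had stayed in place. Of the ends that moved, 4657 lay further inward in Ina and 2983 further outward, so that 61.0% of moved ends made the region shorter. The inward moves had a median of 0.785 kb and the outward moves of 0.545 kb. In whole regions, 3745 were shorter in Ina, 2251 were longer and 576 had moved both ends the same way along the chromosome.

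Cutting was more frequent than joining. In the Ina list, 2366 control regions (8.84%) were cut into 5161 parts, and 2028 of them were cut into 2. The gaps that opened between the parts were short, with a median of 0.176 kb, and 90.0% of them were under 1 kb. Joining affected 2029 control regions (7.59%), which formed 976 Ina regions across gaps with a median of 0.171 kb. On the other 10 chromosomes, the cut share ran from 7.88 to 10.3% of the control regions and the joined share from 5.71 to 9.81%. When regions under 1 kb apart were first joined within each list, 1003 control regions were cut and 1074 joined. Counted by control region, cutting then no longer exceeded joining. Each joined Ina region takes up 2 or more control regions, so these 1074 stand for fewer joins than the 1003 cuts.

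The sequence that differed between the lists came from different kinds of region in each direction. Gained regions held 12.4 Mb, 63.3% of all bases found only in the Ina list. Lost regions held 5.73 Mb, 31.6% of all bases found only in the control list, and the shifted ends held more, 7.51 Mb or 41.5%. In the regions with shifted ends, Ina extended beyond control by 4.33 Mb. Above the filter at 78, the regions in 1 list only held 7.50 Mb in Ina and 6.73 Mb in control, while the shifted ends kept nearly the same sums of 4.34 and 7.82 Mb. The plot of differing sequence by kind of region shows both settings.

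**Figure D1:**
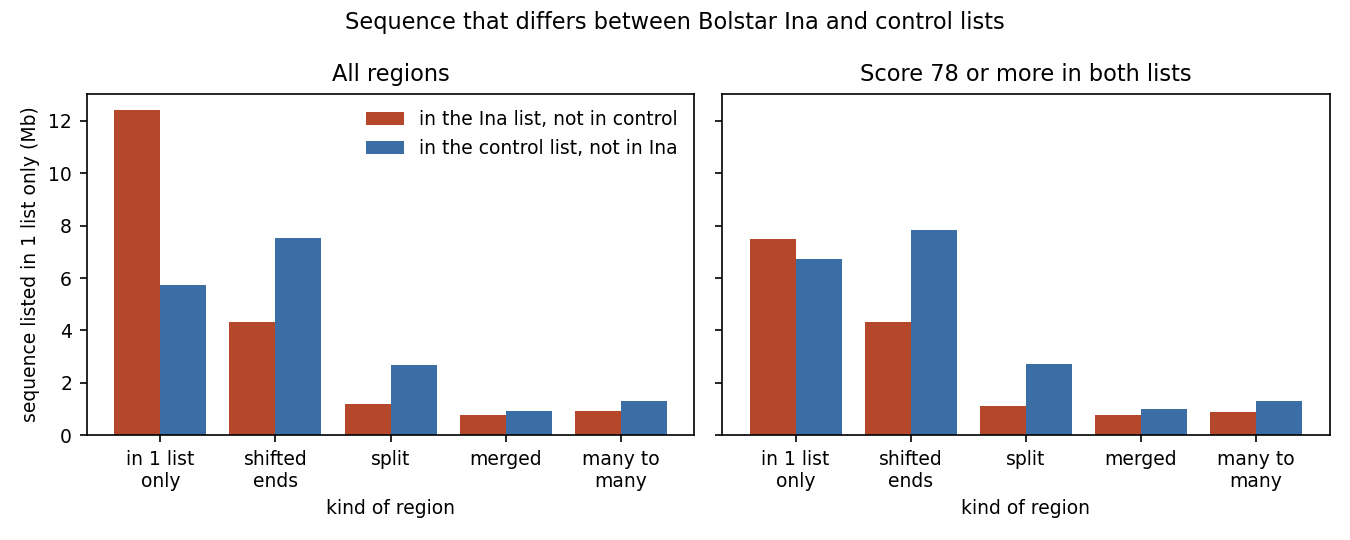
Sequence listed in only 1 of the Bolstar Ina and control lists, in Mb, by kind of region, over all regions (left) and at a score of 78 or more in both lists (right). Regions in 1 list only lead on the Ina side at 12.4 Mb over all regions, and shifted ends lead on the control side at 7.51 Mb.

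Chromosome 9 differed most. Its Jaccard index was 0.558, against 0.930 to 0.952 on the other 10 chromosomes and 0.853 on chromosome 6. Gained regions numbered 494, 22.4% of the Ina regions there, and lost regions 352, 17.7% of the control regions. The other 10 chromosomes had 4.97 to 6.38% gained and 1.20 to 1.85% lost. Chromosome 9 contributed 9.03% of the sequence and 3.07% of the bases shared by both lists, yet 27.9% of the differing bases, 23.2% of the gained regions and 46.0% of the lost regions. The chromosome was sparsely listed by both groups, at 25.5% of its length in each, against 60.3% in Ina and 60.1% in control over the other 10. The filter at 78 left these values close, with a Jaccard index of 0.559, 421 gained (20.2%) and 379 lost (19.0%).

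On chromosome 9, both lists held much sequence that the other lacked. Ina alone listed 5.26 Mb there and control alone 5.27 Mb, which became 4.84 and 5.49 Mb at a score of 78 or more. Identical ends were found for 17.7% of its control regions, against 48.7 to 55.3% on the other 10 chromosomes. Shifted ends were found for 42.5%, and both ends had moved in many of these, since 1 end had stayed in place in 53.7%, against 89.3% over the other 10. The moves were also larger, with a median of 1.53 kb inward and 1.42 kb outward.

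Chromosome 6 had the next lowest overlap. Ina alone listed 1.98 Mb and control alone 1.44 Mb over all regions, which became 1.61 and 1.56 Mb at a score of 78 or more. Over all regions, 188 were gained (9.33%) and 59 lost (3.35%), and Ina listed 44.0% of the chromosome against 42.9% in control. With the filter at 78, 114 were gained (5.97%) and 74 lost (4.21%), and the listed shares were 43.0 and 42.9%. Identical ends were found for 29.7% of its control regions. The chromosome held 6.17% of the sequence and 9.06% of the differing bases. The cut and joined shares on chromosome 6, 8.47 and 9.66%, lay within the range of the other 10 chromosomes over all regions. With the filter at 78, the joined share of 10.1% was above the highest of the other 10, 9.98%.

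**Figure D2:**
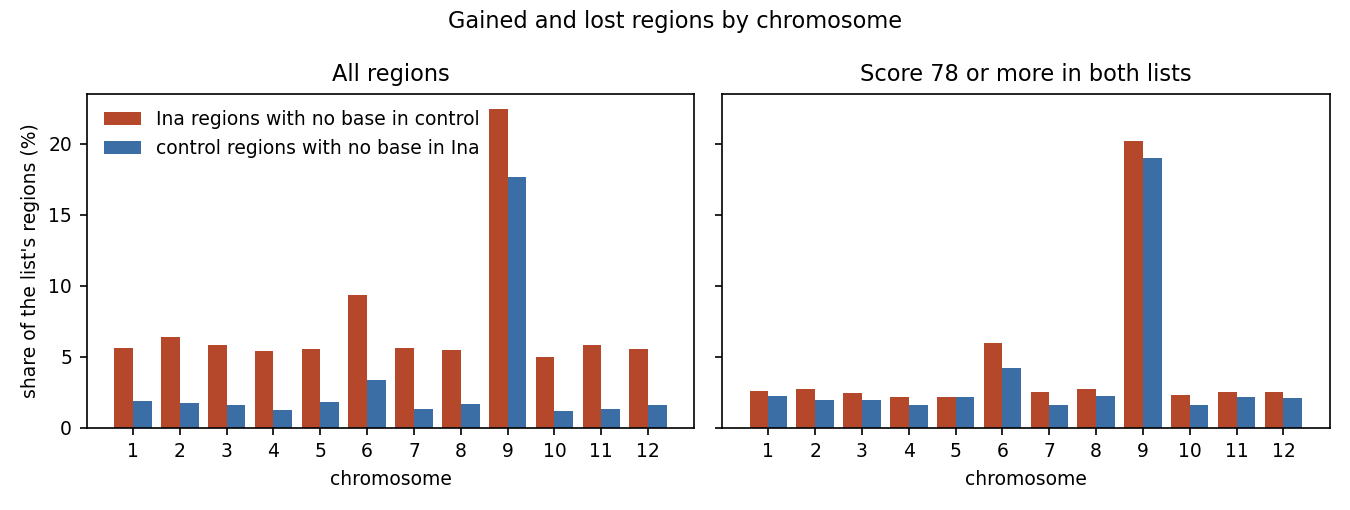
Gained regions as a share of the Ina list and lost regions as a share of the control list, in percent, for each of the 12 chromosomes, over all regions (left) and at a score of 78 or more in both lists (right). Chromosome 9 stands above all others in both directions at 22.4 and 17.7%, followed by chromosome 6 at 9.33 and 3.35%.

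Scores differed between regions with the same ends most often on these chromosomes. Of 523 regions with identical ends on chromosome 6, 187 had another score in Ina than in control, which is 35.8% (95% Wilson interval 31.8 to 40.0%). On chromosome 9 the count was 141 of 353, or 39.9% (35.0 to 45.1%), and on the other 10 chromosomes 756 of 12167, or 6.21% (5.80 to 6.66%). The median size of a difference was 1 site on chromosome 6 and 2 sites on chromosome 9. Over all 12 chromosomes, the differences (Ina minus control) ran from -24 to 38. The control score was the higher one in 109 of the 187 regions on chromosome 6 and in 86 of the 141 on chromosome 9. In Moneyberg, where Ina-treated seed was compared with its own control, the same shares were 3.87% on chromosome 6 and 23.2% on chromosome 9. The Bolstar list for BABA (beta-aminobutyric acid, another priming agent) in time window 2 gave 42.6 and 38.2% against the same Bolstar control, so the pair of Bolstar comparisons is not independent.

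Gained and lost regions were small. The median gained region was 5.53 kb long with a score of 78, and the median lost region was 7.28 kb long with a score of 98. They also held fewer sites for their length, with a median of 14.5 per kb in gained and 13.6 per kb in lost regions, against 16.1 per kb in each whole list. At a score of 78 or more, the gained regions had a median length of 6.12 kb and a median score of 84. The nearest region of the other list was a median of 4.22 kb away from a gained region and 3.86 kb away from a lost one. It lay within 1 kb for 24.8% of the gained and 26.3% of the lost regions.

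The share of unshared regions varied with score. The score grows with length, with a Pearson correlation of 0.929 in the Ina list and 0.933 in the control list. A longer region has more bases on which the 1 shared base can fall. The shares below therefore do not separate score from length, and no control region has a score from 71 to 77. Of the Ina regions with scores from 71 to 77, 979 of 1294 were gained, or 75.7%. The share fell to 31.6% at scores of 78 to 84, to 7.78% at 85 to 99, to 3.77% at 100 to 149 and to 0.690% at 150 to 199. At 200 or more, 8 of 12635 Ina regions were gained. Lost regions made up 8.45% of the control regions at 78 to 84, 10.2% at 85 to 99, 4.97% at 100 to 149 and 0.881% at 150 to 199, and 8 of 12467 at 200 or more. In total 1571 of the gained regions (73.9%) and 86 of the lost regions (11.2%) had a score below 85.

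Outside chromosomes 6 and 9, regions with a high score were nearly always shared. There, 1 of 11735 Ina regions with a score of 200 or more was gained, and 0 of 11543 control regions were lost, which allows a share of up to 0.0333% by the Wilson upper bound. On chromosome 9, 4 of 251 Ina regions and 8 of 281 control regions of that score were unshared. At scores of 100 to 149, 17.4% of the Ina regions on chromosome 9 were gained (14.9 to 20.3%), against 1.64% on the other 10 chromosomes (1.34 to 2.01%). Of the 35 gained regions with a score of 150 or more, 24 lay on chromosome 9 and 7 on chromosome 6, and of the 40 such lost regions 28 lay on chromosome 9 and 3 on chromosome 6.

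**Figure D3:**
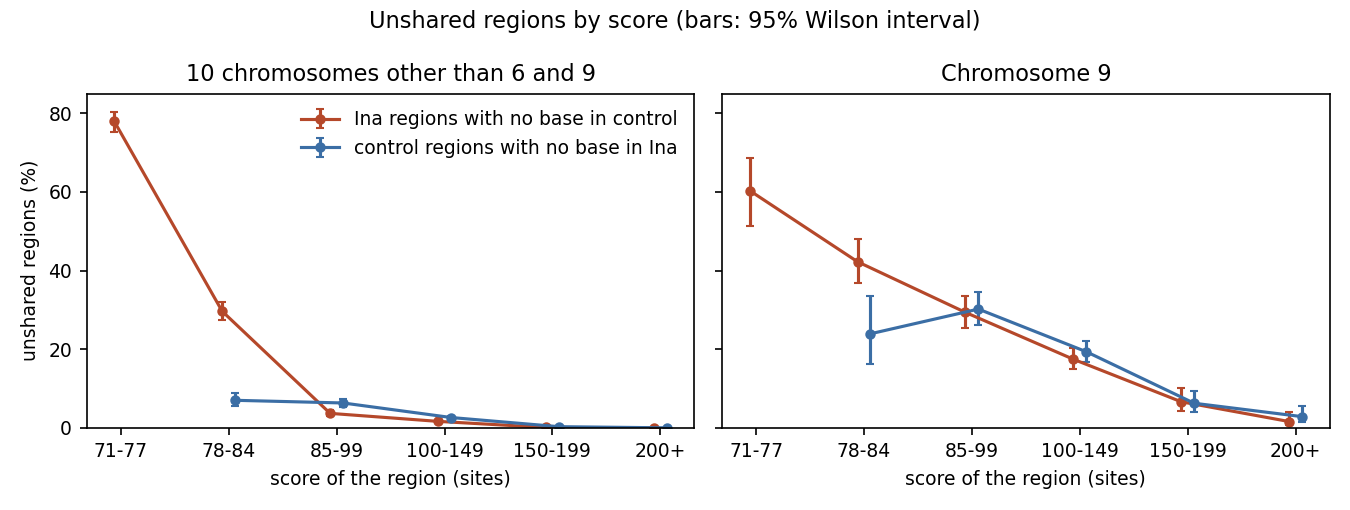
Share of regions with no base in the other list, in percent, by score class, for the other 10 chromosomes (left) and chromosome 9 (right), with 95% Wilson intervals over regions as bars. The share falls with score in the Ina list on both sides, and at scores of 100 to 149 it stands at 17.4% on chromosome 9 and 1.64% on the other 10 chromosomes.

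Few Ina regions lay within 100 bases of the boundary between shared and unshared. The count still depends on the overlap rule, since 6513 Ina regions were unshared when 50% reciprocal overlap was required. The gained regions nearest to a control region lay 11 bases from it, and the most narrowly shared Ina regions shared 1 base. In the Ina list, 6 regions were shared by under 100 bases and 82 were unshared within 100 bases of a control region. At a score of 77, 70.9% of 247 Ina regions were unshared, and at a score of 78, 68.9% of 302 were. The share then fell to 52.4% at a score of 79 and 33.8% at 80. The control list held 2 regions at 78, 63 at 79 and 134 at 80, so it thins out toward its lower limit.

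Sharing varied with position along the chromosome. On the other 10 chromosomes at a score of 78 or more, 6.85% of the Ina regions in the first 5 Mb were gained, 1.93% in the interior and 11.1% in the last 5 Mb. The lost shares were 5.39, 1.60 and 7.07% in the same order. The Jaccard index was 0.889 in the first 5 Mb, 0.954 in the interior and 0.839 in the last 5 Mb. These ends were sparsely listed, at 25.4 and 12.1% of their length in Ina against 66.5% in the interior. On chromosome 9 the order was the opposite, with a Jaccard index of 0.542 in the interior, 0.809 in the first 5 Mb and 0.760 in the last.

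Within chromosome 9, the overlap was lowest between 20 and 60 Mb. The Jaccard index of the 4 windows of 10 Mb there ran from 0.477 to 0.504 at a score of 78 or more, and it was 0.789 between 60 and 70 Mb. Between 20 and 30 Mb, Ina listed 19.9% and control 17.9%, with 69 gained and 35 lost regions. Between 50 and 60 Mb, Ina listed 24.7% and control 29.4%, with 57 gained and 88 lost. On chromosome 6, the windows of 10 Mb had Jaccard indices from 0.812 to 0.881. Over 10 equal parts of its length, chromosome 9 had its lowest Jaccard index of 0.448 in the sixth and its highest of 0.818 in the last.

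**Figure D4:**
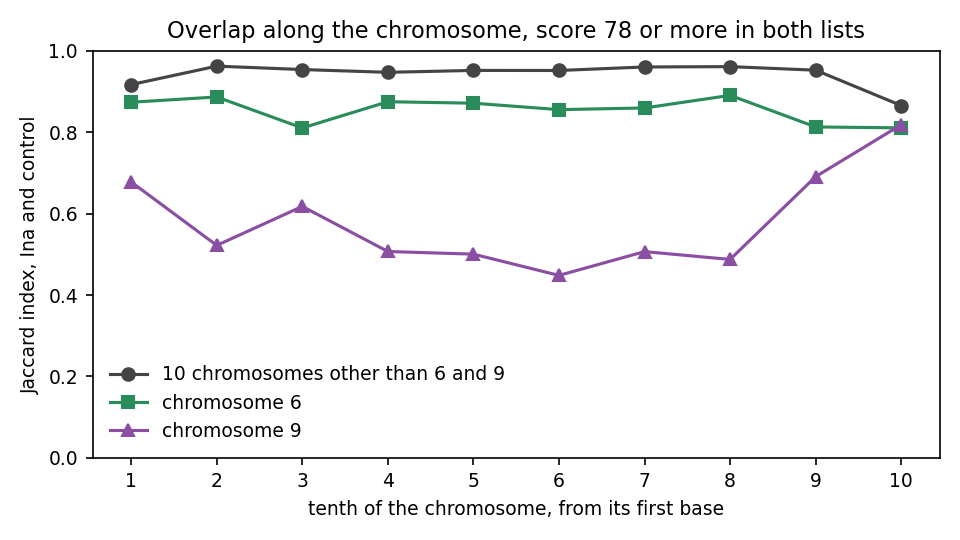
Jaccard index of the Ina and control lists in each of 10 equal parts of the chromosome, counted from its first base, at a score of 78 or more in both lists, for the other 10 chromosomes together, chromosome 6 and chromosome 9. Chromosome 9 dips to 0.448 in the sixth part and comes to 0.818 in the last, where the other 10 chromosomes stand at 0.865.

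In bins of 1 Mb, the listed share at a score of 78 or more differed by a median of 0.896 percentage points, and by 5 points or more in 14 of 808 bins. Of these 14 bins, 13 were falls in Ina, at a filter that takes regions out of the Ina list only. The 5 bins with the largest falls in Ina were all on chromosome 9. Between 56 and 57 Mb, Ina listed 15.8% and control 31.1%, with 4 regions gained and 18 lost. Over all regions, the Ina value there was 17.7%, the Bolstar BABA value 27.8% and the 5 Moneyberg values 19.0 to 26.2%. The next bins differed by -8.77 points (60 to 61 Mb), -8.35 points (12 to 13 Mb), -7.67 points (40 to 41 Mb) and -7.28 points (59 to 60 Mb), Ina minus control. Over all regions, the same bins differed by -8.29, -6.84, -4.04 and -6.67 points in the same order. In all 5 bins, the Bolstar control had the highest listed share of the 8 lists over all regions. The bins were picked for a control value well above Ina, which in itself favours a high control value.

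Of the 5 bins with the largest rises, 4 lay on chromosome 6. The largest was between 11 and 12 Mb, where Ina listed 21.3% and control 15.2% at a score of 78 or more, with 12 regions gained and 4 lost. Over all regions, Ina stood at 22.2%, Bolstar BABA at 14.9% and the 5 Moneyberg lists at 44.5 to 45.9%. Between 30 and 31 Mb, Ina stood at 64.7%, control at 57.3% and the Moneyberg lists at 80.6 to 81.1%. In all 4 of these chromosome 6 bins the Ina value lay between the Bolstar control and the lowest Moneyberg value. Because these bins were picked for a rise in Ina, a value above the control follows from the choice. Across all 50 bins of chromosome 6, Ina was above the Bolstar control in 36 over all regions and in 23 at a score of 78 or more. The control was below every Moneyberg list by 5 points or more in 19 bins, and Ina was above it in 17 of these over all regions and in 11 at 78 or more. These 19 bins were picked for a low control value, which in itself favours a higher Ina value.

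Regions gained in Ina were often listed in Moneyberg seed as well. All 5 Moneyberg lists touched 60.2% of the gained regions (58.1 to 62.2%), against 91.5% of all Ina regions, and none touched 12.6%. The share was 86.2% on chromosome 6, 67.1% on the other 10 chromosomes and 30.0% on chromosome 9, against 96.3, 94.4 and 53.6% of all Ina regions in the same order. All 5 touched 35.7% of the lost regions (32.4 to 39.1%), against 92.3% of all control regions. For the lost regions, the shares were 83.1% on chromosome 6, 47.5% on the other 10 chromosomes and 15.9% on chromosome 9, against 96.8, 95.2 and 54.3% of all control regions. With the filter at 78, the genome-wide shares were closer to each other, at 52.6% of gained and 40.7% of lost regions. The lost regions start at a higher score than the gained ones, and the score limits of the Moneyberg lists run from 65 to 71.

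Counted in bases, both Bolstar lists differed from Moneyberg on chromosome 6. The Jaccard index of the Ina list with the 5 Moneyberg lists was 0.802 to 0.811 there, and that of the control list was 0.779 to 0.789. At a score of 78 or more in the Bolstar lists, Ina was again closer than control to each of the 5, at 0.788 to 0.797. Over the other 10 chromosomes, Ina was closer to 5 of the 5 Moneyberg lists with all regions and to 0 of the 5 at a score of 78 or more, so there the order turned with the filter. Of the 1.98 Mb found only in Ina on chromosome 6, 82.4% was listed in all 5 Moneyberg lists, and of the 1.44 Mb found only in control, 73.6% was. On chromosome 9, the same shares were 16.9 and 9.69%, and on the other 10 chromosomes 58.3 and 48.1%. Each single Moneyberg list held 94.2 to 94.6% of the bases of all Ina regions on chromosome 6. For all control regions there the values were 93.8 to 94.5%. On chromosome 9 they were 62.1 to 68.2% for Ina and 60.7 to 66.4% for control. Being listed in a single list is a looser measure than being listed in all 5.

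The gained regions with the highest scores lay mainly on chromosomes 9 and 6. Of the first 10 at a score of 78 or more, 6 lay on chromosome 9, 3 on chromosome 6 and 1 on chromosome 3. The highest score, 308 sites over 15.5 kb, belonged to chromosome 6 at 5162323 to 5177864. None of its bases stood in the Bolstar control or Bolstar BABA lists. Moneyberg control and Moneyberg Ina each listed 99.4% of it, and the other 3 Moneyberg lists 86.6%. It lay 1.58 kb from the nearest control region. Of the 3 Bolstar lists, Ina was the 1 that held this stretch, while all Moneyberg lists held most of it.

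The next gained region, on chromosome 6 at 14819497 to 14837896, spanned 18.4 kb with a score of 256. Bolstar BABA listed 49.3% of it and the Moneyberg lists 97.9 to 100%. Another chromosome 6 region, at 28362532 to 28371930, had a score of 202, and the Moneyberg lists held 100% of it and Bolstar BABA 97.1%. In these latter regions, both Bolstar treatment lists held bases that their control lacked.

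The chromosome 9 regions were listed less evenly. The region at 37547491 to 37558148 had a score of 217 over 10.7 kb. Bolstar BABA listed 66.6% of it, Moneyberg control 26.1%, Moneyberg BABA 51.8% in window 2 and 31.1% in window 3, and Moneyberg Ina and MeJA (methyl jasmonate) none. The region at 55649981 to 55665298, with a score of 211, lay 35.0 kb from the nearest control region. Moneyberg Ina held none of it and the other Moneyberg lists 21.9 to 69.3%. On chromosome 3, near the start of the chromosome, the region at 272181 to 287344 had a score of 203. Bolstar BABA and both Moneyberg BABA lists held none of it, Moneyberg control and Moneyberg Ina each held 48.0%, and Moneyberg MeJA held 68.2%.

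Of the 10 lost regions with the highest scores, 8 lay on chromosome 9. The pair with a score of 235 each lay at 37067118 to 37088235 and at 38967394 to 38981513. Bolstar BABA held none of the former and 100% of the latter. Moneyberg control held 49.7% of the former and 91.4% of the latter. The region at 51288227 to 51310546, with a score of 215 over 22.3 kb, was absent from 4 of the Moneyberg lists, and MeJA held 29.4% of it. The highest score, 245, belonged to chromosome 8 at 30331893 to 30356087, but 31.8% of its bases stood in an Ina region with a score below 78. The same holds for chromosome 4 at 35787578 to 35803666, of which 26.5% was in such an Ina region. Both count as lost at a score of 78 or more but not over all regions.

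Outside chromosomes 6 and 9, the gained region after the one on chromosome 3 lay on chromosome 1 at 68635695 to 68647388 with a score of 191, and Bolstar BABA held 100% of it. Among the lost regions, chromosome 11 at 17950657 to 17952508 was short with a high score for its length, 192 in 1.85 kb, or 103.7 sites per kb. Regions over 100 sites per kb numbered 6 in the Ina list and 3 in the control list. Bolstar BABA listed 100% of this region and Moneyberg control 54.3%.

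**Figure D5:**
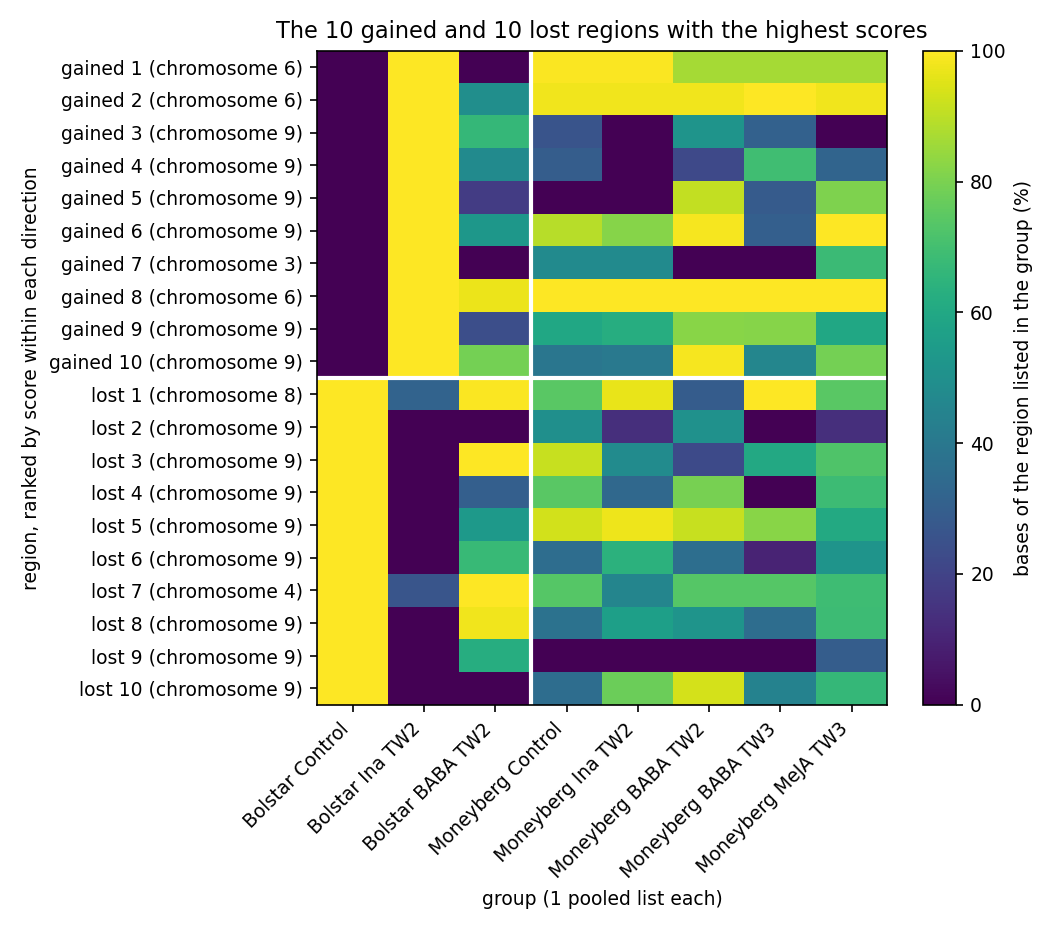
Percent of the bases of each region that each of the 8 groups lists, for the 10 gained (top) and 10 lost (bottom) regions with the highest scores at a score of 78 or more in both lists, in order of score. The chromosome 6 rows are at 86.6 to 100% across the Moneyberg columns, while the chromosome 9 rows vary from list to list. In lost rows 1 and 7 the Ina column is at 31.8 and 26.5%, from Ina regions with scores below 78.

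Among the groups of overlapping regions, the 5 with the most bases in only 1 list included 4 on chromosome 9. On chromosome 9 between 60161032 and 60205779, a pair of Ina regions covered 24.5 kb and a pair of control regions 41.4 kb, with scores of 264 and 463 in sum. Between 31001012 and 31034944, 1 control region of 18.8 kb faced 2 Ina regions of 27.3 kb together. On chromosome 7 between 26439596 and 26480270, 3 control regions covered 40.0 kb and 2 Ina regions 22.0 kb. In each of these groups the lists overlapped, so none of them counts as gained or lost.

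The Ina list held more regions than its control in Bolstar and fewer in Moneyberg. The difference (Ina minus control) was -1598 in Moneyberg over all regions and -562 at a score of 78 or more, where it was 2027 in Bolstar. In Moneyberg, 834 regions were gained (2.67%) and 1441 lost (4.39%), which became 1006 (3.48%) and 756 (2.56%) at a score of 78 or more and 975 (3.6%) and 682 (2.48%) at 85 or more. The Moneyberg control list was cut at 3.90% of its regions and joined at 13.3%, against 8.84 and 7.59% in Bolstar. The Jaccard index of Moneyberg Ina and its control was 0.935 in all, 0.956 on chromosome 6 and 0.562 on chromosome 9. The low overlap on chromosome 9 was thus present in both cultivars, while chromosome 6 stood at 0.853 in Bolstar. No test of these differences was possible with 1 list per group.

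The Bolstar BABA list, set against the same control, held fewer regions, at -2599 (BABA minus control), with 646 gained (2.67%) and 1891 lost (7.07%). The lowest score in the Bolstar BABA list is 85, against 78 in the control. The 1018 control regions with scores from 78 to 84 thus have no counterpart range in it. With a limit of 85 in both lists, the Bolstar BABA list had 744 gained (3.08%) and 1110 lost (4.31%). Its Jaccard index with the control was 0.921, with 0.862 on chromosome 6 and 0.534 on chromosome 9. Lost regions outnumbered gained ones in the Bolstar BABA list at each of these limits, and in the Ina list at 85.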

How the data were processed

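Whole-genome bisulfite libraries of tomato seed were pooled by the authors into 1 region list per group. The submitters' processing notes name Trim Galore, a read trimmer, and state no version or settings. Not given in the sources used here are the aligner, region caller, genome build, cytosine context and thresholds. The deposited lists hold chromosome, start and end coordinates, a name, a score and a strand. Starts were converted to count from 1. The deposited score was used as given, to filter and rank regions.

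Lists were compared by at least 1 shared base with Python 3.11.15 and numpy 2.4.6, in scripts tested on simulated intervals. Bins were 1 Mb, end zones 5 Mb and Wilson intervals 95%. Alternatives were a score limit of 78, 85 or each list's median, 50% reciprocal overlap, a tolerance of 100 bases on ends, joining regions under 1 kb apart, and leaving out chromosomes 6 and 9. Regions named are the 10 gained and 10 lost with the highest scores at 78 or more, the first 5 of each outside chromosomes 6 and 9, and the 5 overlap groups and bins with the largest differences. The comparison, its members and these rules were chosen with earlier results of these data known. Depth is unknown and replicates are pooled, so no test was run. The gene table at hand is of assembly SLM_r2.1, whose chromosome ends lay over 1 Mb from those of the lists on 11 of 12 chromosomes, so no region was assigned to a gene and no sequence was read.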

Additional observations from a re-analysis of the deposited data

Results flagged for a closer look

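The Ina list had 3321 regions more than its control in Bolstar and fewer than its control in Moneyberg, at -1598. The opposite signs of the same contrast in the cultivars drew attention to this pair of values. With 1 pooled list per group, the difference was not tested. The lowest scores differ between the lists compared, at 71 for Ina and 78 for control in Bolstar, and at 68 for Ina and 65 for control in Moneyberg. At a score of 78 or more in all of them the values are 2027 and -562. The part of the score limits in the difference was not tested beyond this filter.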

How the results depend on the processing

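A score limit moved the count of gained regions from 2127 to 1148 at 78 and to 640 at 85, by leaving out low-scoring regions. With 50% reciprocal overlap required, 6513 Ina and 3192 control regions counted as unshared. Lost regions fell to 413 without chromosome 9 and to 354 without chromosomes 6 and 9. The Jaccard index was 0.927 at a score of 78, 0.926 at 85, 0.855 above each list's median score, 0.922 after joining regions under 1 kb apart, 0.939 without chromosome 9, 0.923 without chromosome 6 and 0.944 without both. Sequence found only in Ina was 12.1 Mb at a score of 85 and 12.4 Mb without chromosomes 6 and 9, where control alone had 11.4 Mb. After joining, 1003 control regions were cut and 1074 joined. Chromosome 9 held 30.2% of differing bases at a score of 78 and 28.4% after joining, and chromosome 6 held 9.23 and 9.01%. Where no construction is named, the cause was not tested. Of 52 alternatives, 25 stayed within the limits set for a change and 27 did not. For counts the limit was a factor of 1.5. For the Jaccard index it was narrower, so that 0.922 against 0.920 lay outside it. The tally therefore does not measure how large the changes were. Gained regions outnumbered lost ones over all regions and at a score of 78 but not at 85. They were also more numerous after joining regions under 1 kb apart, at 1594 against 562. With each list's median score as limit, 1460 were gained and 573 lost, but the medians differ, at 166 for Ina and 184.5 for control. Ina minus control sequence turned from 1.51 Mb over all regions to -4.96 Mb at 78. No paired analysis was possible because each group's replicates were pooled into 1 list, which also prevents leaving out a replicate.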
